A study of Mus musculus with 32 samples.

Results

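The genes described are 9 components and regulators of the complement system: *C1qa*, *C1qb*, *C1qc*, *C2*, *C3*, *C4b*, *Cfb*, *Cfi*, and *Cfd*. They were chosen by name, with earlier results of these data known. Each symbol matched 1 row, so that they make up 9 of the 34453 rows of counts. They were measured in RNA from the retinal pigment epithelium (RPE), the cell layer behind the photoreceptors, of mice labelled *rd1*, whose rods die early from a mutation of *Pde6b*. According to the methods, the *rd1* animals were FVB/N mice and the viruses were injected under the retina. In each mouse, 1 eye, called the Nrf2 eye, was given AAV carrying human Nrf2 behind the Best1 promoter, mixed with AAV-Best1-GFP. Its fellow, called the control eye, was given AAV-Best1-GFP alone, so that GFP was common to all eyes. According to the methods, the Nrf2 virus had another capsid than the GFP virus and added to the total dose. The Nrf2 eyes thus received more virus and a further capsid. Effects of dose, capsid, and Nrf2 cannot be told apart, and the Nrf2 effect below means the difference between the eyes. The Best1 promoter was used to limit expression to the RPE. There were 7 mice at postnatal day 20 (P20) and 9 other mice at P40, with 1 library for each of the 32 eyes. The question of the comparison between the eyes was what Nrf2 in the RPE changes, at each age.

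Complement is a cascade of blood and tissue proteins that tags cells and debris for uptake and can form pores in membranes. In the classical pathway, C1q binds a target and its partner proteases C1r and C1s cleave C4 and C2, whose fragments form the enzyme that cleaves C3, whereas the alternative pathway amplifies C3 cleavage with factors B and D. Inhibitors such as factor I hold C3 cleavage in check, and in the eye the RPE and choroid make several of these proteins, while C1q is known mainly as a product of macrophages and microglia.

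The libraries were made from the eyecup after the retina had been taken off, and the RNA was amplified before sequencing. Total counts were between 16548332 in the Nrf2 eye of P20 mouse 2 and 50542797 in the Nrf2 eye of P20 mouse 7, and 3 counts, taken as the floor of detection, corresponded to between 0.0565 and 0.182 CPM. Levels are counts scaled to a common TMM-normalized library size (CPM). The floor covers counting error only, since amplified reads are not independent molecules. The labels give every mouse as *rd1*, whereas the methods list *rd1* and CD1 pairs at P40 that together add up to the P40 mice used here, and fewer P20 pairs than are used here. Whether some of the P40 mice were CD1 could not be settled, so the strain at P40 rests on the labels alone. The labels mention separate sequencing runs without assigning the libraries, and the title prefixes differ between the ages, so that run and age cannot be told apart.

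Transcripts of the human transgene, *NFE2L2*, went against the label in 2 libraries. At P20, the library labelled control of mouse 3 reached 1098 CPM where the other control eyes had 154 CPM or less, and the library labelled Nrf2 of mouse 4 reached 1082 CPM where the other Nrf2 eyes had 4809 CPM or more. These 2 libraries were also closer to each other than any other pair, with a chi-square per gene of 7.84, against 44.9 for the next closest pair. The Nrf2 effect at P20 on the members tested, and on *C1ra* and *C1s1*, described further on, is therefore also given without P20 mice 3 and 4. At P40, the transgene was at 99.0 CPM or less in control eyes and at 3203 CPM or more in Nrf2 eyes. *Rpe65*, which encodes the retinoid isomerase that defines the RPE, was at 664 CPM or more in all control eyes and was lower in the Nrf2 eye in 7 of 7 mice at P20 and 9 of 9 at P40.

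*C1qa*, *C1qb*, and *C1qc* encode the chains of C1q, the recognition molecule that starts the classical pathway. At P40, all of them were higher in Nrf2 eyes. They lie side by side on the minus strand of chromosome 4 (GRCm38, GENCODE vM21), *C1qa* at chr4:136895917-136898803, *C1qc* at chr4:136889804-136893065, and *C1qb* at chr4:136880129-136886187. Promoter windows from RefSeq (GRCm38.p6), from 250 bases before to 50 bases after a gene's start, were matched for 4 of the 9 members: *C1qb*, *C1qc*, *C3*, and *Cfd*. Those of *C1qb* (chr4:136886151-136886450) and *C1qc* (chr4:136892865-136893164) are shown on the minus strand, 5′ to 3′, because these genes moved together.
C1qb: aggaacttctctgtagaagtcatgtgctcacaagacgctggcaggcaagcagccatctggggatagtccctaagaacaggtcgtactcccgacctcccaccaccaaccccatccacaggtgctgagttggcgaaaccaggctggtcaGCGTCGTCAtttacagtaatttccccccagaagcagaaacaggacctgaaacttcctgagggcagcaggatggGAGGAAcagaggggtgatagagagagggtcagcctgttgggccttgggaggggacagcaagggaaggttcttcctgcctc
C1qc: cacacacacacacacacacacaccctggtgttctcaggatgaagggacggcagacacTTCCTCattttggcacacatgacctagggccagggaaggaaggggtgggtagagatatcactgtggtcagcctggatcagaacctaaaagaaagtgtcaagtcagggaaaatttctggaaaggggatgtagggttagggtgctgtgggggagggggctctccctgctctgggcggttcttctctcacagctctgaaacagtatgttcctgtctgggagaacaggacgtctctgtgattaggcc
Capitals mark matches, on either strand, to TGACNNNGC, the core of the antioxidant response element to which Nrf2 binds, and to GAGGAA, a core of ETS family sites such as those of PU.1. The motifs do not overlap in these windows. *C1qb* had 1 match to each, *C1qc* had 1 match to GAGGAA, and *C3* and *Cfd* had none. TGACNNNGC occurred in 12.4% and GAGGAA in 28.3% of all 32851 promoter windows, and a match is only a description of the letters.

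At P40, *C1qa* was between 7.45 CPM (mouse 8) and 20.5 CPM (mouse 5) in control eyes, with a median of 9.38, and between 17.5 CPM (mouse 4) and 84.4 CPM (mouse 7) in Nrf2 eyes, with a median of 46.0. *C1qb* was between 8.06 CPM and 26.1 CPM in control eyes (median 9.53) and between 16.6 CPM and 98.3 CPM in Nrf2 eyes (median 41.7). *C1qc* was between 5.63 CPM and 27.9 CPM in control eyes (median 12.6) and between 21.5 CPM and 91.4 CPM in Nrf2 eyes (median 42.3). The groups overlapped narrowly for each chain. The highest control eye was that of mouse 5 and the lowest Nrf2 eye that of mouse 4, and within each mouse the Nrf2 eye was higher in 9 of 9 mice.

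The log2 fold change (log2FC) at P40 was 1.91 for *C1qa* (SE 0.240, adjusted p = 0.000587, edgeR's quasi-likelihood test with Benjamini-Hochberg adjustment over all genes), a 3.77-fold difference. It was 1.81 for *C1qb* (SE 0.253, adjusted p = 0.00120, 3.50-fold) and 1.92 for *C1qc* (SE 0.253, adjusted p = 0.000784, 3.77-fold). Together with *Cfi*, described further on, 4 of the 8 members tested at P40 passed the threshold of 0.05 as higher in Nrf2 eyes, whereas 3.33% of the 16686 genes tested did so. The C1q chains moved together over the libraries, so their calls are not independent of each other. Because the members were chosen with earlier results known, no conclusion is drawn from these shares. Of the members tested, 0 were called lower by edgeR, against 1.23% of all genes, 0 were lower at an unadjusted p under 0.05, and 0 were called lower by DESeq2 or limma voom. The median log2FC of the 8 members was 0.96, against -0.03 over all genes tested. It lay in a gap and describes no single member. The members called were at 1.44 or more, and *C2*, *C3*, *C4b*, and *Cfb* at 0.48 or less.

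**Figure D1:**
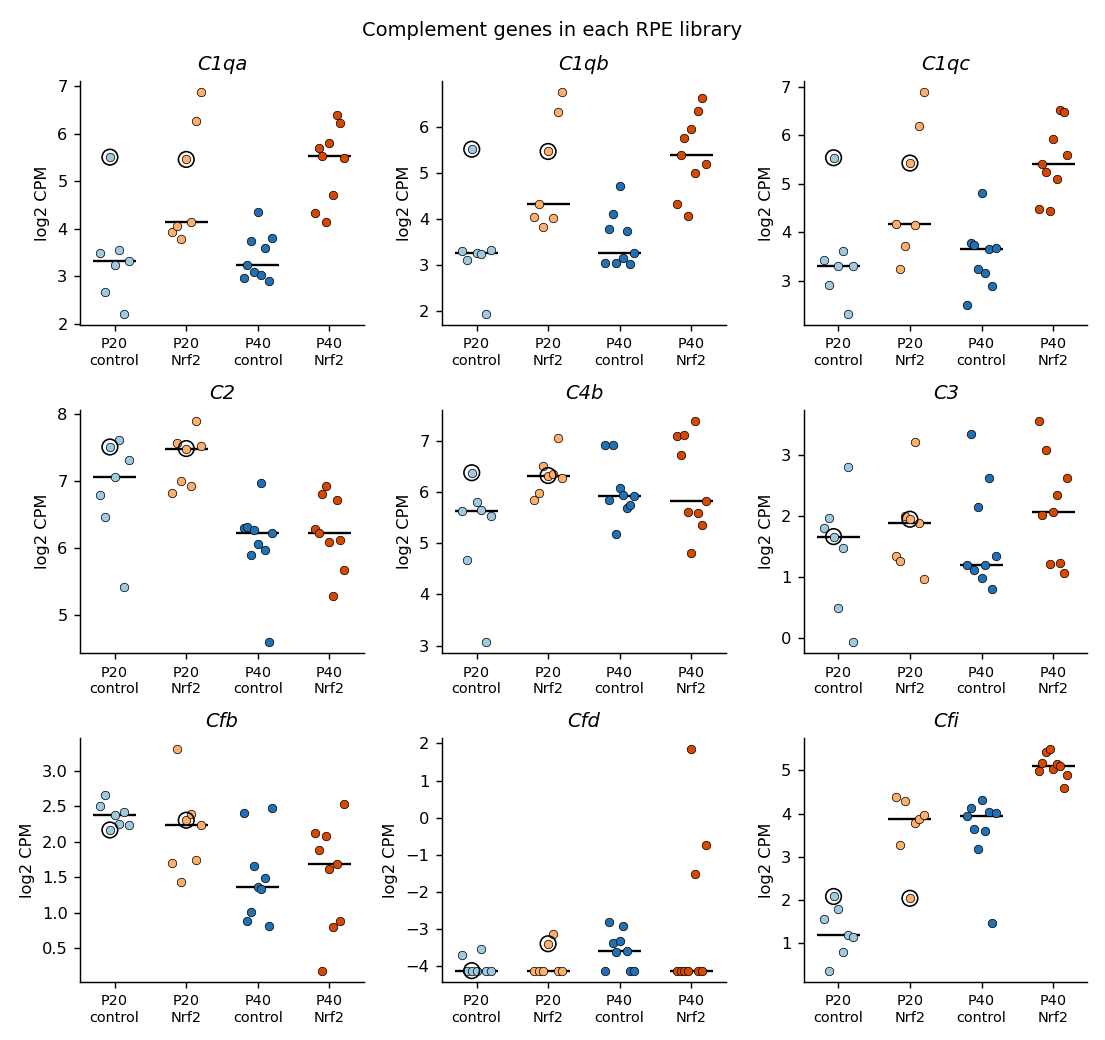
Levels of the 9 members in each of the 32 libraries by group, as log2 CPM with a prior count of 2; each point is an eye, the lines are group medians, and rings mark the control eye of P20 mouse 3 and the Nrf2 eye of P20 mouse 4. The C1q chains are high in Nrf2 eyes at P40, in the ringed control eye, and in some Nrf2 eyes at P20, which include the highest of all libraries, Cfi has its lowest median in control eyes at P20, and Cfd is near the floor except in 3 Nrf2 eyes at P40.

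At P20, *C1qa* was between 4.57 CPM (mouse 6) and 45.4 CPM (mouse 3) in control eyes, with a median of 9.91, and between 13.7 CPM (mouse 3) and 117 CPM (mouse 7) in Nrf2 eyes, with a median of 17.6. *C1qb* was between 3.78 CPM and 45.5 CPM in control eyes (median 9.57) and between 14.2 CPM and 107 CPM in Nrf2 eyes (median 19.8). *C1qc* was between 4.95 CPM and 46.3 CPM in control eyes (median 9.90) and between 9.42 CPM and 118 CPM in Nrf2 eyes (median 18.1). For each chain, the highest control value was that of the library labelled control of mouse 3, and the next highest control eye had 11.7 CPM of *C1qa*. In 6 of 7 mice the Nrf2 eye had more of each chain, and mouse 3 was the exception, with a difference of -1.72 on the log2 scale for *C1qa*.

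None of the chains passed the threshold at P20 by edgeR. The log2FC was 1.51 for *C1qa* (SE 0.705, adjusted p = 0.303), 1.57 for *C1qb* (SE 0.697, adjusted p = 0.280), and 1.32 for *C1qc* (SE 0.712, adjusted p = 0.368). DESeq2 called *C1qa* (adjusted p = 0.0493) and *C1qb* (adjusted p = 0.0381), whereas by limma voom the log2FC fell to 0.86 for *C1qa* (adjusted p = 0.423), 0.91 for *C1qb* (adjusted p = 0.393), and 0.85 for *C1qc* (adjusted p = 0.435). Without single mice it was between 1.09 and 2.01 for *C1qa* and between 1.14 and 2.06 for *C1qb*, lowest without mouse 6. Without P20 mice 3 and 4, *C1qa* was between 4.57 and 11.7 CPM in the 5 control eyes and between 15.2 and 117 CPM in the 5 Nrf2 eyes, with no overlap, and *C1qb* did not overlap either. *C1qc* still overlapped, at up to 12.2 CPM in control eyes and from 9.42 CPM in Nrf2 eyes. The log2FC values were then 1.91 for *C1qa* (adjusted p = 0.150), 1.99 for *C1qb* (adjusted p = 0.133), and 1.70 for *C1qc* (adjusted p = 0.208), so the threshold was not passed without those mice.

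The change of the Nrf2 effect from P20 to P40, tested over all 32 libraries, was 0.41 for *C1qa* (SE 0.679), 0.25 for *C1qb* (SE 0.683), and 0.61 for *C1qc* (SE 0.695), none past the threshold. Without P20 mice 3 and 4 it was -0.02 for *C1qa*, -0.20 for *C1qb*, and 0.18 for *C1qc*, whereas by limma voom it was 1.05, 0.87, and 1.10, with adjusted p of 0.634 or more. Thus, the passing of the threshold at P40 and not at P20 was not shown to be a difference between the ages. In control eyes, P40 against P20 gave -0.27 for *C1qa* (SE 0.393, adjusted p = 0.640), -0.08 for *C1qb*, and -0.17 for *C1qc*. These turned positive without the control eye of P20 mouse 3, to 0.37, 0.59, and 0.46. In Nrf2 eyes, the log2FC with age was 0.15 for *C1qa* (SE 0.481, adjusted p = 0.869), 0.24 for *C1qb*, and 0.28 for *C1qc*, and that of *C1qa* was -0.04 without P20 mice 3 and 4.

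Over the 32 libraries, *C1qa* and *C1qb* had a Pearson r of 0.98 (log2 CPM, Spearman's rho 0.97), *C1qa* and *C1qc* one of 0.98, and *C1qb* and *C1qc* one of 0.97. Among 11782 genes ranked by r with each member, the 5 closest to *C1qa* were *Trem2* (r = 0.97), *Laptm5*, *Fcgr3*, *Ctss*, and *Lyz2* (r = 0.89). *Trem2* also led for *C1qb* (r = 0.97), followed by *Ctss*, *Tyrobp*, *Fcgr3*, and *Laptm5*, and for *C1qc* (r = 0.96), followed by *Fcgr3*, *Ctss*, *Laptm5*, and *Lyz2*. The value for *C1qa* and *Trem2* was 0.97 by Spearman's rho as well and without the 2 libraries farthest from the median. These libraries share their groups and the mice that gave both eyes, and no p is given.

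The genes nearest to the C1q chains are markers of macrophages and microglia, and a list of 18 such markers was compared between the eyes. At P40, 10 of the 17 markers tested were called higher in Nrf2 eyes by edgeR and 0 lower, with a median log2FC of 1.35. Of all genes tested, 3.33% were called higher and 1.23% lower. At an unadjusted p under 0.05, 13 of the markers were higher and 1 lower, and DESeq2 called 13 higher and 1 lower and limma voom 13 higher and 0 lower. The markers called by edgeR included *P2ry12* (2.43), *Trem2* (2.29), *Adgre1* (2.28), *Tyrobp* (1.99), *Fcer1g* (1.93), *Laptm5* (1.76), *Cx3cr1* (1.67), *Lyz2* (1.63), and *Ctss* (1.35). Summed over the 18 markers, the level was 217 to 582 CPM in control eyes at P40 (median 344) and 345 to 877 CPM in Nrf2 eyes (median 653), which overlapped. The most abundant marker in control eyes was *Csf1r*, which had a log2FC of -0.99 (adjusted p = 0.0902), and was lower in the Nrf2 eye in 8 of 9 mice. No marker was at 0 in all libraries of a group.

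At P20, 0 of 17 markers passed by edgeR, 3 had an unadjusted p under 0.05 (2 higher and 1 lower), 3 were called by DESeq2 (2 higher and 1 lower) and 0 by limma voom, with a median log2FC of 0.82, and 0 passed by edgeR without mice 3 and 4. The summed level was 290 to 615 CPM in control eyes (median 382), highest in the library labelled control of mouse 3, and 300 to 1021 CPM in Nrf2 eyes (median 333), highest in mouse 7. The same libraries were the highest for the C1q chains in their groups at P20. In control eyes at P40, the sum was highest in mouse 1 (582 CPM), which had the lowest *C1qc* of the group (5.63 CPM). All chains were highest there in mouse 5. In Nrf2 eyes at P40, the sum and *C1qb* were highest in mouse 8, and *C1qa* and *C1qc* in mouse 7. Over all 32 libraries, the summed level had an r of 0.83 with *C1qa* (Spearman's rho 0.66, r 0.77 without the 2 farthest libraries), 0.80 with *C1qb*, and 0.80 with *C1qc*, and of deviations from the group means the r with *C1qa* was 0.80. In these bulk libraries, fewer cells of a type and less RNA per cell cannot be told apart, and neither can more cells and more RNA per cell. The part of macrophages or microglia in the rise of the C1q chains was not tested.

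**Figure D2:**
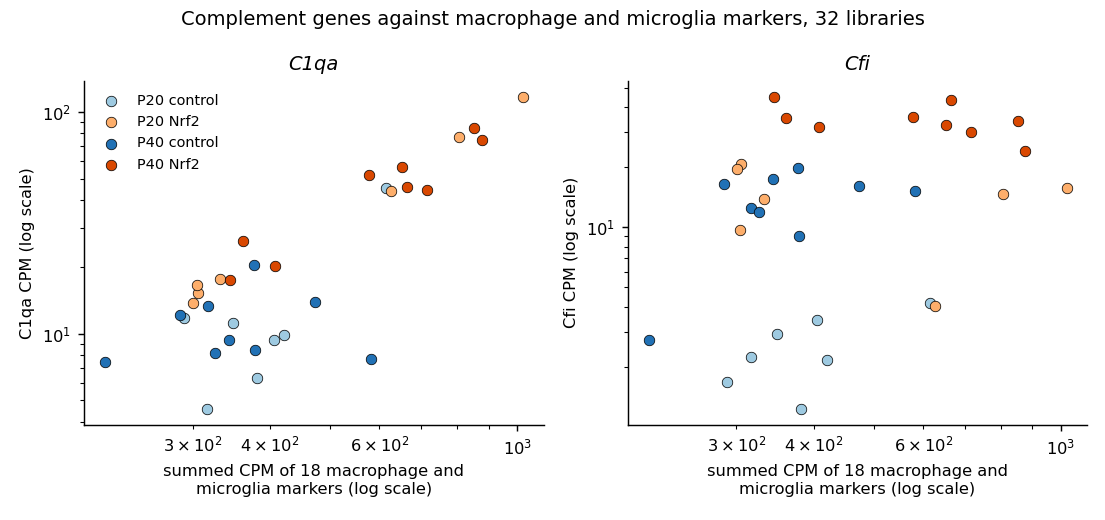
C1qa and Cfi in each of the 32 libraries against the summed level of 18 macrophage and microglia markers, all in CPM on log axes, coloured by group. C1qa follows the summed level (r = 0.83), whereas Cfi has an r of 0.35 and is at 4.18 CPM or less in all control eyes at P20.

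*C2*, *C4b*, and *C3* encode the next steps of the pathway, and none of them passed the threshold between the eyes. C2 is the protease that C1s cleaves, and its gene lies at chr17:34862604-34898265 on the minus strand. *C2* was between 42.7 and 196 CPM in control eyes at P20 (median 134) and between 113 and 239 CPM in Nrf2 eyes (median 179). The P40 values were between 24.1 and 125 CPM in control eyes (median 74.4) and between 39.0 and 122 CPM in Nrf2 eyes (median 74.6). The eyes overlapped at each age, with log2FC values of 0.37 at P20 (SE 0.363, adjusted p = 0.619, up in 5 of 7 mice) and 0.15 at P40 (SE 0.281, adjusted p = 0.924, up in 5 of 9). The P20 value was -0.04 by limma voom and 0.54 without mice 3 and 4 (adjusted p = 0.566), and at P40 it was -0.02 without mouse 8. *Zbtb12* overlaps *C2* on the opposite strand.

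Between the ages, *C2* was lower at P40 by edgeR without passing the threshold, at -0.83 in control eyes (SE 0.295, adjusted p = 0.0634) and -1.02 in Nrf2 eyes (SE 0.231, adjusted p = 0.0614). DESeq2 called it in control eyes (adjusted p = 0.0365) and in Nrf2 eyes (adjusted p = 0.00484), and limma voom called it in Nrf2 eyes (adjusted p = 0.0162). Leaving out the control eye of P20 mouse 6 or of P40 mouse 6 also brought the control value past the threshold (adjusted p = 0.0369 and 0.0395). The control eye of P40 mouse 8, one of the shallower libraries, was the lowest of its group at 24.1 CPM, with the next lowest at 59.1 CPM. The genes most like *C2* were *B3glct* (r = 0.96), *Tyrp1* (r = 0.94), *Emilin2*, *Trpm1*, and *Pdia5*. *Tyrp1* encodes a melanosome enzyme, and its r with *C2* was 0.91 without the 2 farthest libraries and 0.89 over deviations from the group means. The RPE markers *Rpe65* and *Rlbp1* did not follow *C2*, with an r of -0.23 for *Rpe65* (0.02 over deviations) and -0.09 for *Rlbp1* (0.11 over deviations).

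C4b is the precursor that C1s cleaves first, encoded at chr17:34728380-34743882 on the minus strand. At P20, *C4b* was between 8.31 and 83.6 CPM in control eyes (median 49.9), lowest in mouse 6 and highest in mouse 3, and between 57.7 and 133 CPM in Nrf2 eyes (median 80.4). The Nrf2 eye was the higher one in 7 of 7 mice, with a log2FC of 0.95 (SE 0.427, adjusted p = 0.284), and 1.23 without mice 3 and 4 (adjusted p = 0.244), when the groups did not overlap, and 0.61 by limma voom (adjusted p = 0.165). At P40, it was between 36.4 and 123 CPM in control eyes (median 60.9) and between 28.2 and 170 CPM in Nrf2 eyes (median 57.0), higher in the Nrf2 eye in 5 of 9 mice, with a log2FC of 0.11 (SE 0.246, adjusted p = 0.946). By limma voom this was -0.0026, and without mouse 6 it was -0.06. The difference between the ages was -0.84 (SE 0.487, unadjusted p = 0.101). With age, its log2FC was 0.67 in control eyes (SE 0.359, adjusted p = 0.193) and 0.07 in Nrf2 eyes, where limma voom gave -0.61. Its near copy *C4a* was not analysed here, and reads of the copies may have been split.

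C3 is the protein on which the pathways converge, encoded at chr17:57203970-57228136 on the minus strand. *C3* was low, between 0.899 and 6.90 CPM in control eyes at P20 (median 3.11) and between 1.89 and 9.17 CPM in Nrf2 eyes (median 3.64). At P40, it was between 1.70 and 10.1 CPM in control eyes (median 2.24) and between 2.03 and 11.7 CPM in Nrf2 eyes (median 4.14). The groups overlapped over most of their range. Its log2FC was 0.33 at P20 (SE 0.419, adjusted p = 0.717, up in 4 of 7 mice) and 0.48 at P40 (SE 0.472, adjusted p = 0.794, up in 6 of 9), and with age 0.26 in control eyes (SE 0.456) and 0.42 in Nrf2 eyes (SE 0.420). Without P20 mice 3 and 4, the P20 medians changed order, to 3.41 CPM in control eyes and 2.47 CPM in Nrf2 eyes, and the log2FC fell to 0.07 (adjusted p = 0.962), whereas by limma voom over all mice it was 0.59 (adjusted p = 0.254). The sign of the change with age in control eyes turned without the control eye of P40 mouse 2, at -0.11.

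Of the alternative pathway, *Cfb* encodes factor B, the protease that joins C3b, and lies next to *C2* at chr17:34856374-34862518 on the minus strand. At P20, *Cfb* was between 4.43 and 6.28 CPM in control eyes (median 5.15) and between 2.64 and 9.85 CPM in Nrf2 eyes (median 4.65). At P40, it was between 1.70 and 5.53 CPM in control eyes (median 2.51) and between 1.08 and 5.75 CPM in Nrf2 eyes (median 3.15). The eyes of an age overlapped, with log2FC values of -0.25 at P20 (SE 0.248, adjusted p = 0.626, lower in 5 of 7 mice; -0.20 without mice 3 and 4) and 0.00 at P40 (SE 0.269, adjusted p = 0.999, up in 6 of 9), the sign of the latter turning with limma voom and with RLE scaling.

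With age, *Cfb* had a log2FC of -0.75 in control eyes (SE 0.264, adjusted p = 0.0594) and -0.57 in Nrf2 eyes (SE 0.352, adjusted p = 0.307). The value in Nrf2 eyes was -0.11 by limma voom and -0.31 without the Nrf2 eye of P20 mouse 2. The control value passed the threshold with DESeq2 (adjusted p = 0.0255), limma voom (adjusted p = 0.00787), a stricter filter that kept genes with 10 or more counts in each library (adjusted p = 0.0429), and without the control eye of P40 mouse 1 (adjusted p = 0.0203) or P40 mouse 9 (adjusted p = 0.0306). A transcript that reads through both genes, *Gm20547*, overlaps *C2* by 19439 bases and *Cfb* by 6107 bases on the same strand, and was assigned up to 1.74 CPM, so that the split of reads between *Cfb* and this gene is uncertain. The genes most like *Cfb* were *Gbf1* (r = 0.87), *Pi4kb*, *Arnt*, *Copa*, and *Acad9*.

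*Cfd* encodes factor D, the protease that activates factor B, also known as adipsin from fat cells, and lies at chr10:79890853-79892655 on the plus strand. *Cfd* had 0 counts in 5 of 7 control eyes and 5 of 7 Nrf2 eyes at P20 and in 3 of 9 control eyes and 6 of 9 Nrf2 eyes at P40. All other libraries had 3 counts or fewer except the Nrf2 eyes of P40 mice 5, 6, and 9, which had 131, 9, and 22 counts, or 3.54, 0.290, and 0.545 CPM. *Cfd* did not pass the filter on low counts in any comparison, so that it has no test and no fold change is given. Of 10 adipocyte markers, 0 of 6 tested at P40 passed by edgeR, at an unadjusted p under 0.05, or by DESeq2 or limma voom, with summed levels of 15.6 to 41.0 CPM in control eyes and 11.7 to 57.0 CPM in Nrf2 eyes. *Lipe* was their most abundant gene, *Lep* was at 0 in all P40 libraries, and *Adipoq* was highest, at 0.514 CPM, in the Nrf2 eye of P40 mouse 5. The part of fat cells in these counts was not tested.

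*Cfi* encodes factor I, the protease that inactivates C3b and C4b, and lies at chr3:129835884-129875332 on the plus strand. It was the only member called higher in Nrf2 eyes at each age, and the only member called higher at P40 than at P20, by edgeR. At P20, *Cfi* was between 1.23 CPM (mouse 2) and 4.18 CPM (mouse 3) in control eyes, with a median of 2.25, and between 4.06 CPM (mouse 4) and 20.7 CPM (mouse 1) in Nrf2 eyes, with a median of 14.7. The overlap came from the libraries labelled control of mouse 3 and Nrf2 of mouse 4, and without these mice the control eyes were at 2.91 CPM or less and the Nrf2 eyes at 9.63 CPM or more. At P40, it was between 2.73 CPM (mouse 8) and 19.9 CPM (mouse 5) in control eyes, with a median of 15.2, and between 23.9 CPM (mouse 8) and 45.0 CPM (mouse 4) in Nrf2 eyes, with a median of 34.1. The groups did not overlap at P40.

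At P20, *Cfi* was up in the Nrf2 eye of 7 of 7 mice, with a log2FC of 2.41 (SE 0.345, adjusted p = 0.0117, 5.33-fold). It was thus the 1 member called of the 8 tested at P20, where 2.93% of the 16303 genes tested were called higher. Of the members, 0 were called lower by edgeR, against 0.485% of all genes, 0 were lower at an unadjusted p under 0.05, and 0 were called lower by DESeq2 or limma voom. Without mice 3 and 4 its log2FC was 2.82 (adjusted p = 0.00292), and without mouse 7 it was 2.34 and missed the threshold (adjusted p = 0.0531). In P40 mice it was higher in 9 of 9, with a log2FC of 1.44 (SE 0.255, adjusted p = 0.00559, 2.72-fold). The median log2FC of the members at P20 was 1.14, against -0.04 over all genes.

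**Figure D3:**
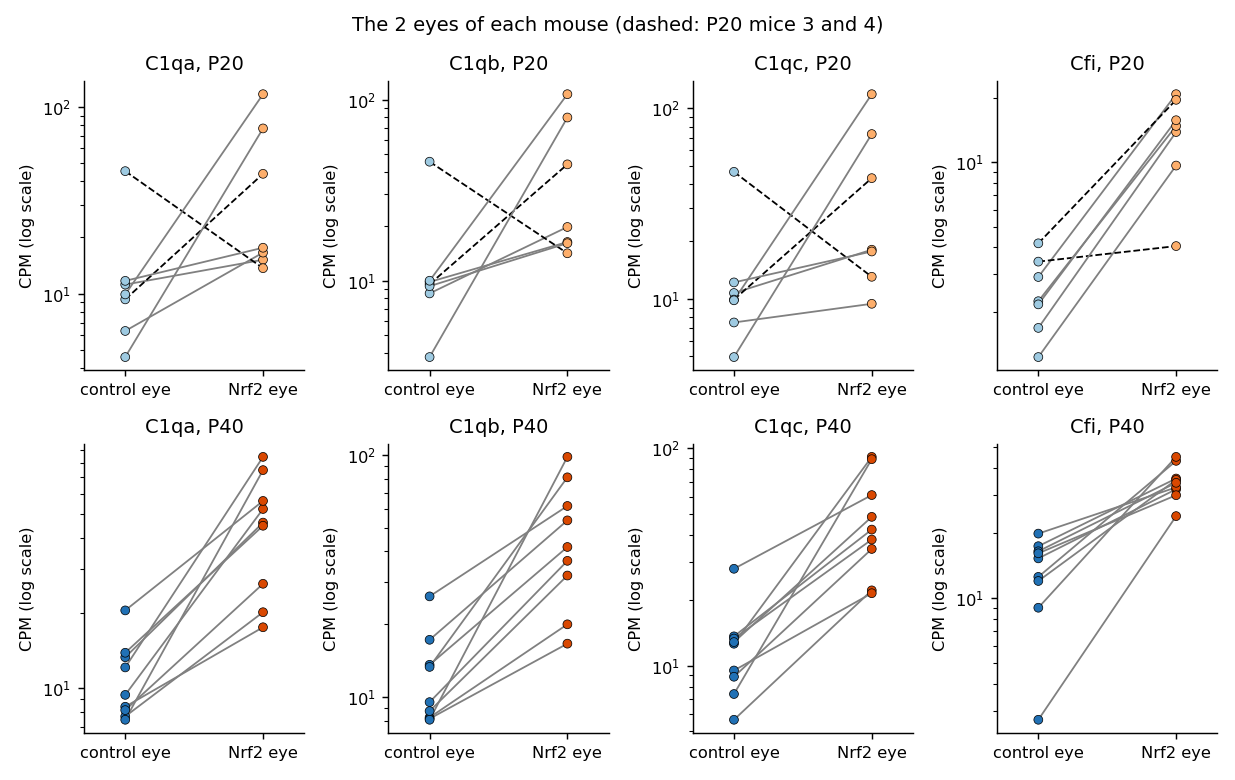
C1qa, C1qb, C1qc, and Cfi in the control and the Nrf2 eye of each mouse at P20 and P40, in CPM on a log axis, with a line joining the eyes of a mouse; dashed lines are P20 mice 3 and 4. At P40 every line rises for the 4 genes, and at P20 only the C1q lines of mouse 3 fall.

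In control eyes, *Cfi* was higher at P40 than at P20, with a log2FC of 2.44 (SE 0.357, adjusted p = 0.00279, 5.41-fold). Of the 8 members tested, 1 was called higher, near the background of 8.34% of the 16832 genes tested. The groups overlapped through the control eye of P40 mouse 8 alone, at 2.73 CPM, the next lowest P40 control eye having 9.01 CPM. Without P20 mice 3 and 4, the log2FC was 2.74 (adjusted p = 0.00761). Of the members, 0 were called lower by edgeR, against 6.42% of all genes, whereas 2 were lower at an unadjusted p under 0.05 (*C2* and *Cfb*), and 2 were called lower by DESeq2 and 1 by limma voom. The median log2FC of the members was -0.12.

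In Nrf2 eyes, *Cfi* was between 4.06 and 20.7 CPM at P20 and at 23.9 CPM or more at P40, with no overlap. Its log2FC was 1.32 (SE 0.263, adjusted p = 0.0345, 2.50-fold), and 1.23 without P20 mice 3 and 4 (adjusted p = 0.0317). It was 1 of 8 members called higher, against 0.167% of the 16745 genes tested, and 0 members were called lower by edgeR, against 0.334% of all genes, whereas 1 was lower at an unadjusted p under 0.05 (*C2*), and 1 was called lower by DESeq2 and 1 by limma voom. The call was lost when the Nrf2 eye of P20 mouse 2, 5, 6, or 7 was left out (adjusted p = 0.0747, 0.0745, 0.0994, and 0.0657) or that of P40 mouse 3, 4, 5, 6, or 7 (adjusted p = 0.0527, 0.0565, 0.0613, 0.0531, and 0.0635), and with no filter on low counts (adjusted p = 0.0644). The median of the members was 0.19. The comparisons between the ages and between the eyes share libraries.

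The Nrf2 effect on *Cfi* differed between the ages by -0.97 (SE 0.423, unadjusted p = 0.0347, adjusted p = 1.00). Of the 8 members, 0 were called in this comparison by edgeR, against 0.00557% of the 17959 genes tested, and 0 by DESeq2 or limma voom. At an unadjusted p under 0.05 there was 1 member, *Cfi*, against 429 of all genes tested. The medians of *Cfi* thus stood at 2.25 CPM in control eyes at P20, 14.7 CPM in Nrf2 eyes at P20, 15.2 CPM in control eyes at P40, and 34.1 CPM in Nrf2 eyes at P40. The Nrf2 eyes at P20 and the control eyes at P40 overlapped.

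The genes most like *Cfi* over the 32 libraries were *Gm5514* (r = 0.91), *Adam7* (r = 0.91), *Ift57* (r = 0.90), *Ifitm10* (r = 0.89), and *Gpx4* (r = 0.89), none of which is on the list of macrophage and microglia markers. Its r with the summed level of those markers was 0.35 (Spearman's rho 0.33), and 0.11 over deviations from the group means. Its r with the C1q chains was between 0.53 and 0.55, and 0.13 with *C1qa* over deviations from the group means. For *C3* and *C4b* the closest genes were *Col14a1* (r = 0.63) and *Abcc5* (r = 0.72).

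**Figure D4:**
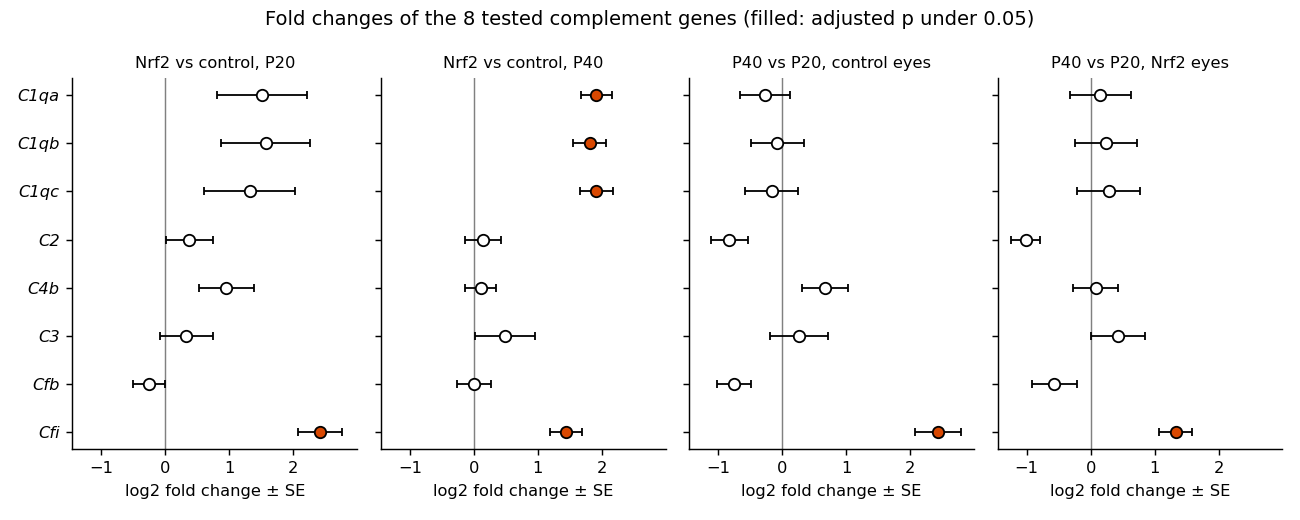
Log2 fold changes (log2FC) of the 8 members tested in 4 comparisons, Nrf2 against control eyes at P20 and P40 and P40 against P20 in control and in Nrf2 eyes; bars are 1 SE and filled points have an adjusted p under 0.05. Cfi is filled in all 4 panels and the C1q chains in that of Nrf2 against control eyes at P40.

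Per kilobase of transcript, the order of the members' levels differed between the groups. In control eyes at P20, the median was 50.7 CPM per kb for *C2*, followed by *C1qa* (9.53), *C4b* (9.28), *C1qb* (8.79), and *C1qc* (8.23), then *Cfb* (1.87), *Cfi* (1.08), *C3* (0.605), and *Cfd* at 0. Neighbours in this order overlapped, except that *Cfb* lay below *C1qc* and *Cfd* below *C3*. In Nrf2 eyes at P40, *C1qa* was first (44.2 CPM per kb), followed by *C1qb* (38.3), *C1qc* (35.1), *C2* (28.2), *Cfi* (16.4), *C4b* (10.6), *Cfb* (1.15), *C3* (0.806), and *Cfd* at 0. There the ranges of all neighbours overlapped, except that *Cfb* lay below *C4b*. In Nrf2 eyes at P20, *C2* was first at 67.7 CPM per kb and *Cfi* was at 7.09, and in control eyes at P40, *C2* was first at 28.2 and *Cfi* was at 7.33.

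Of 52 other complement genes listed by role, 30 were tested at both ages. Among genes that start the classical and lectin pathways, 2 of 7 tested were called higher in Nrf2 eyes by edgeR at P20 and 3 of 5 at P40, with medians of 1.63 and 1.56, and 0 lower. Of all genes tested, edgeR called 2.93% higher at P20 and 3.33% at P40. DESeq2 called 4 of the list at each age and limma voom 3 at P20 and 4 at P40, all higher. Over all genes, DESeq2 called 1244 higher at P20 and 873 at P40, and limma voom 1592 and 867. The genes of this list called by edgeR were *C1ra* and *C1s1* at both ages and *C1rb* at P40, which encode the proteases C1r and C1s that travel with C1q. At P20, *C1ra* was between 4.95 and 19.7 CPM in control eyes and between 19.3 and 59.2 CPM in Nrf2 eyes, and at P40 between 8.18 and 18.7 CPM and between 25.9 and 83.4 CPM. The groups did not overlap at P40, and at P20 they met only at the libraries of mice 3 and 4. Its log2FC was 1.92 at P20 (SE 0.26, adjusted p = 0.0105, 7 of 7 mice) and 1.65 at P40 (SE 0.19, adjusted p = 0.000291, 9 of 9 mice), and at P20 without mice 3 and 4 it was 2.24 (adjusted p = 0.00609).

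At P20, *C1s1* was between 3.78 and 13.8 CPM in control eyes and between 13.9 and 30.1 CPM in Nrf2 eyes, and at P40 between 2.85 and 15.9 CPM and between 9.92 and 39.1 CPM. Its groups did not overlap at P20 and overlapped at P40. Its log2FC was 1.63 at P20 (SE 0.23, adjusted p = 0.0117, 7 of 7 mice) and 1.56 at P40 (SE 0.33, adjusted p = 0.0181, 8 of 9 mice). The P20 value was 1.85 without mice 3 and 4 (adjusted p = 0.0143). The call was lost at P20 without mouse 7 (adjusted p = 0.0514) and at P40 without mouse 4, 5, 7, or 9 (adjusted p = 0.0526, 0.0572, 0.0583, and 0.0508). *C1rb* had a log2FC of 2.28 at P40 (SE 0.43, adjusted p = 0.00912, 9 of 9 mice) and 2.18 at P20 (SE 0.51, adjusted p = 0.0569, 6 of 7 mice), which passed the threshold by DESeq2 (adjusted p = 0.000211), by limma voom (adjusted p = 0.00323), without the mouse as a block (adjusted p = 0.0124), without mouse 4 (adjusted p = 0.00820), and without mice 3 and 4 (2.70, adjusted p = 0.0292). Its counts were low, at most 209 in any library and 0 in the control library of P40 mouse 8. *C1ra* and *C1rb*, and *C1s1* and *C1s2*, are near copies that may share reads, and an antisense gene, *Gm16567*, overlaps *C1s1*. The most abundant starter was *Colec12* in control eyes and *C1ra* in Nrf2 eyes.

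The promoter windows of *C1ra* (chr6:124512371-124512670, plus strand) and of the first of its listed starts for *C1s1* (chr6:124542310-124542609, minus strand) are shown beside those of the C1q genes because their products act together, with the same capitals.
C1ra: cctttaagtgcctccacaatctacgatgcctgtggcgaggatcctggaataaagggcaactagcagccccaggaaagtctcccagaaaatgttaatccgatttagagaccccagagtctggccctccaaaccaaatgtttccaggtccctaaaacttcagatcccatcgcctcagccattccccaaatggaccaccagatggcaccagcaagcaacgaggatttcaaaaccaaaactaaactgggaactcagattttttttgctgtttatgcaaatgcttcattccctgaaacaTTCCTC
C1s1: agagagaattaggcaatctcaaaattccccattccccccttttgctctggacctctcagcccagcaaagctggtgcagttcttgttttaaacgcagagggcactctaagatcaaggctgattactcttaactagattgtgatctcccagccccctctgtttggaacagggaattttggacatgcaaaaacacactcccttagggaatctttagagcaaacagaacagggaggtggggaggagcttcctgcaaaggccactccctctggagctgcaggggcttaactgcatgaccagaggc
*C1ra* had 1 match to GAGGAA and none to TGACNNNGC, and *C1s1* had no match to either.

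Of 3 genes of the alternative and terminal pathway tested at P20, 1 was called higher, *C9*, which forms the pore. It passed the filter on low counts through its Nrf2 eyes alone, so no conclusion is drawn from the call and only its levels are described. *C9* had 3 counts or fewer in all 7 control eyes and between 0.399 and 1.41 CPM in the Nrf2 eyes, higher in 7 of 7 mice, so that no fold is given. At P40, where it did not pass the filter on low counts, its Nrf2 eyes had between 0.388 and 1.44 CPM and it was higher in 9 of 9 mice. Of the 2 genes of this list tested at P40, 0 were called by edgeR, at an unadjusted p under 0.05, or by DESeq2 or limma voom. *C8g* was the most abundant gene of this list. *Clu*, encoding clusterin, was the most abundant of the other inhibitors, with a median of 9458 CPM in control eyes at P40.

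Of 9 complement receptors and binding proteins tested, 0 were called between the eyes by edgeR at either age, though without P20 mouse 4 *Itgam*, a chain of complement receptor CR3, was called lower in Nrf2 eyes at P20 (log2FC -1.26, adjusted p = 0.0254). At an unadjusted p under 0.05 there were 0 at P20 and 3, all higher, at P40, and DESeq2 and limma voom each called 0 at P20 and 3 at P40. Between the ages, 1 of the 9 was lower at P40 in control eyes, also *Itgam*, with a log2FC of -1.42 (SE 0.46, adjusted p = 0.0483). That call was lost by limma voom (adjusted p = 0.0671), with no filter (adjusted p = 0.0657), in 1 fit of the 4 groups (adjusted p = 0.0764), without P20 mice 3 and 4 (adjusted p = 0.0544), and without any of 11 single eyes, those of P20 mice 1, 2, 3, 5, 6, and 7 and P40 mice 2, 3, 5, 7, and 9, with adjusted p up to 0.0913, and *Gm49368* overlaps the gene on the same strand. No other gene of these complement lists was called between the ages or for the difference of the Nrf2 effect by edgeR. Over starters, genes of the alternative and terminal pathway, and receptors, DESeq2 called 1 receptor higher and 1 lower with age in control eyes and 0 genes in Nrf2 eyes, and limma voom called 1 starter higher, *C1ra* (adjusted p = 0.0312), and 1 starter lower in control eyes and 0 genes in Nrf2 eyes. Of the inhibitors reported here, DESeq2 called 2 of 14 higher with age in control eyes and 3 of 12 in Nrf2 eyes, limma voom called 1 and 2, and 0 were called lower.

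**Figure D5:**
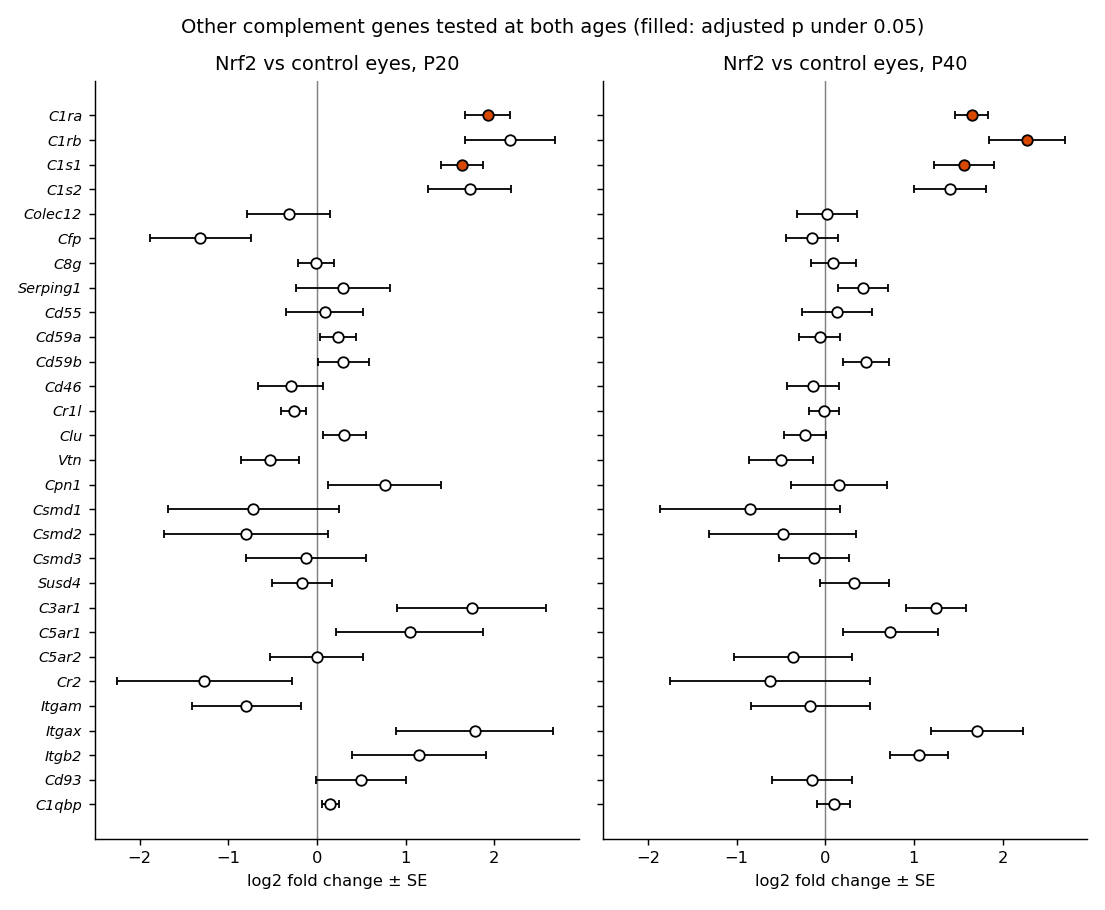
Log2 fold changes (log2FC), Nrf2 against control eyes, of 29 other complement genes tested at both ages, by role; bars are 1 SE and filled points have an adjusted p under 0.05. C1ra and C1s1 are filled at both ages and C1rb at P40, all to the right of 0.

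Markers of other cells also differed between the eyes, beside the members. By edgeR at P40, 7 of 14 RPE markers were lower in Nrf2 eyes (median -1.02), as were 9 of 9 cone markers (median -3.30) and 3 of 9 rod markers, with 1 rod marker higher. Of all genes tested at P40, 1.23% were called lower and 3.33% higher. Of the neutrophil and monocyte markers, 1 of 4 tested was higher at P40, *Csf3r*, with a log2FC of 1.85 (adjusted p = 0.0263). At P20, edgeR called 1 of 14 RPE markers, 2 of 9 cone markers, and 1 of 10 mural and muscle markers lower, and 1 of 10 rod markers higher. Of all genes tested at P20, 0.485% were called lower and 2.93% higher. Cone markers had a median of -2.35 there, with 8 of 9 lower at an unadjusted p under 0.05 and 6 called lower by DESeq2 and 9 by limma voom. Rod markers had a median of -1.56, with 5 of 10 lower at an unadjusted p under 0.05 and 5 called lower by DESeq2 and 6 by limma voom, each of which also called 1 higher. Of the RPE markers, DESeq2 called 1 higher and 1 lower at P20 and 1 higher and 10 lower at P40, and limma voom 2 higher and 1 lower at P20 and 1 higher and 8 lower at P40. Between the ages, 0 of 17 macrophage and microglia markers tested passed by edgeR in control eyes and 0 of 18 in Nrf2 eyes, with 1 at an unadjusted p under 0.05 and 1 called by DESeq2 in each, and 0 by limma voom. The part of these cells in the members' differences was not tested.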

How the data were processed

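The authors deposited estimated counts per gene, not normalized, which were whole numbers and were used as such; the submitters' processing notes name Salmon 0.9.1. Of 34453 rows, 34401 had a symbol and 4268 had 0 counts in all libraries, and rows were matched to the members by symbol.

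In R 4.3.3, edgeR 4.0.16 was used with filterByExpr, TMM normalization, and the quasi-likelihood test, with Benjamini-Hochberg adjustment of p across every gene tested and a threshold of 0.05. Standard errors were computed as the size of the log2 fold change divided by the root of the F statistic. Comparisons between the eyes had the mouse as a block, those between the ages had none, and the difference of the Nrf2 effect used all 32 libraries. The pairing comes from the labels, which number the individuals, and from the methods. As a check, each eye's deviations from its group mean were correlated across genes with those of the fellow eye. The mean r was 0.0042 for P20 mice (0.0023 between different mice) and 0.112 for P40 mice (-0.0036 between different mice), and r exceeded 0.1 in 2 of 7 and 4 of 9 pairs.

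Alternatives were DESeq2 1.42.0, limma 3.58.1 voom with quality weights, RLE scaling, no filter, at least 10 counts in every library, no block, 1 fit of the 4 groups over all libraries, each mouse or eye left out, and both eyes of P20 mice 3 and 4 left out. The tools were first tested on simulated counts, on which DESeq2 made more false calls than its nominal rate. Its highest share of false calls was above those of edgeR and limma voom. The members and the lists of complement genes and cell markers were chosen with earlier results of these data known. The text names all members, and the other complement genes reported that passed the threshold. It names some, not all, of the markers past the threshold and of the most abundant genes of a list. Up to 5 genes with the highest r with a member are named, among genes with a mean log2 CPM of at least 2. *Adipoq*, *C1s2*, and *Lep* are named outside this rule, after their values were seen. Results of 2 genes of the lists are not reported here. Positions are those of GENCODE vM21, and promoter sequences are from RefSeq.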

Additional observations from a re-analysis of the deposited data

Results flagged for a closer look

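Within the 4 groups, 36 combinations of member and group were examined for a library far from the others, meaning a gap to the nearest library that was large against the whole range of the group (Dixon's test), and 5 combinations stood out. Chance alone gives about 1 in 20. In control eyes at P20, the library labelled control of mouse 3 was the highest for *C1qa* (45.4 CPM, next 11.7), *C1qb* (45.5 CPM, next 9.996), and *C1qc* (46.3 CPM, next 12.2). In the same library the transgene was at 1098 CPM and the summed macrophage and microglia markers at 615 CPM, each the highest of its group, and their part in these values was not tested.

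In control eyes at P40, mouse 8 was the lowest for *C2* (24.1 CPM, next 59.1) and for *Cfi* (2.73 CPM, next 9.01). That library had 17721493 counts, and its summed macrophage and microglia markers, at 217 CPM, were the lowest of its group. So were its summed markers of the RPE (12475 CPM, group median 39569), Müller glia and astrocytes (3320 CPM, median 8747), and inner retina (311 CPM, median 589). By group means, *Apoe* made up 83.0% of the glial sum and *Trpm1* 78.8% of the inner retina sum, so these sums mostly follow single genes. In the library of mouse 8, the summed neutrophil and monocyte markers (14.5 CPM), adipocyte markers (41.0 CPM), and interferon response genes (843 CPM) were the highest of the group. Their part was not tested.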

How the results depend on the processing

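Settings other than the leaving out of single mice or eyes changed the number of members called as follows. With DESeq2 it was 3 at P20 (*C1qa*, *C1qb*, and *Cfi*) in place of 1, 3 with age in control eyes in place of 1, and 2 with age in Nrf2 eyes in place of 1. Limma voom, the stricter filter on low counts, and the fit of 4 groups each gave 2 with age, in control as in Nrf2 eyes, and no filter gave 0 in Nrf2 eyes. At P40, 4 members were called in every setting run and without each mouse. Without single mice or eyes the number was 0 to 1 at P20, 1 to 2 with age in control eyes, and 0 to 1 with age in Nrf2 eyes. The difference of the Nrf2 effect gave 0 throughout.

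The sign of a log2 fold change turned in these cases, none of them called. By limma voom, it was -0.040 for *C2* at P20, -0.0026 for *C4b*, -0.015 for *Cfb*, and 0.046 for *Itgam* at P40, and -0.61 for *C4b* with age in Nrf2 eyes. With RLE scaling, *Cfb* at P40 was -0.0019. Without P20 mice 3 and 4, the change with age in control eyes was 0.38 for *C1qa*, 0.63 for *C1qb*, and 0.49 for *C1qc*, that in Nrf2 eyes was -0.039 for *C1qa*, and the difference of the Nrf2 effect was -0.018 for *C1qa* and -0.20 for *C1qb*. Without single mice or eyes, the ranges at P40 were -0.020 to 0.35 for *C2*, -0.063 to 0.28 for *C4b*, -0.12 to 0.15 for *Cfb*, and -0.46 to 0.23 for *Itgam*. With age in control eyes they were -0.48 to 0.37 for *C1qa*, -0.33 to 0.59 for *C1qb*, -0.46 to 0.46 for *C1qc*, -0.11 to 0.58 for *C3*, and -0.01 to 0.42 for *C1s2*. With age in Nrf2 eyes they were -0.032 to 0.64 for *C1qa* and -0.12 to 0.23 for *C4b*, and the Nrf2 effect differed between the ages by -0.068 to 0.84 for *C1qa* and -0.23 to 0.69 for *C1qb*. The cause was not tested.

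The number of all genes called moved by over 1.5 times as follows. At P20 it was 556, and 1951 with DESeq2, 2605 with limma voom, 348 with no filter, and 111 to 1999 without single mice. At P40 it was 762, and 1380 with DESeq2 and 1327 with limma voom. With age in control eyes it was 2483, and 4362 with DESeq2, 3747 with limma voom, 914 with no filter, 158 without P20 mice 3 and 4, and 473 to 4273 without single eyes. With age in Nrf2 eyes it was 84, and 1762 with DESeq2, 2213 with limma voom, 31 with no filter, 20 without P20 mice 3 and 4, 496 in the fit of 4 groups, and 21 to 190 without single eyes. The difference of the Nrf2 effect went from 1 to 12 with DESeq2.

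Without the block for the mouse, 1093 genes were called at P20 and 1 member, and at P40 the same 4 members. The pairing changed no call of a member, but without it *C1rb* and *C1s2* were called at P20 (adjusted p = 0.0124 and 0.0308), and *Itgam* at P40 was 0.011. Over all settings, 918 log2 fold changes kept their direction and side of the threshold, 34 turned, 28 gained a call, and 31 lost one. Depth limits *Cfd*, *C9*, *C1rb*, and *C1s2*, each with 3 counts or fewer in some libraries, and *Cfd*, which did not pass the filter on low counts, was not tested.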

Other observations

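Other gene lists were compared between the eyes by edgeR in the same libraries. All 10 Nrf2 targets tested were higher in Nrf2 eyes at P20 and at P40, with median log2 fold changes of 2.84 and 3.48, the most at P40 in *Srxn1* (5.53, SE 0.39). At P20, the 15 interferon response genes had a median of -0.55 with 2 of 15 above 0, against a median of -0.04 over all genes tested, and 1 was called higher, *Bst2* (1.00), where 2.93% of all genes were called higher, and 0 lower, with 2 lower at an unadjusted p under 0.05 and 1 called lower by limma voom. At P40 the median was 0.03 with 9 of 15 above 0, and 2 were called higher, *Bst2* (1.23) and *Rsad2* (1.78), and 0 lower, where 3.33% of all genes were called higher. Of acute phase and NF-kB response genes, 9 were tested at P20 (median -0.44), where *Serpina3n* was higher (1.10) and *Saa3* lower (-0.88), and 11 at P40 (median 0.18), where *Serpina3n* (1.28) and *Ccl2* (2.05) were higher.

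The RPE markers lower in Nrf2 eyes at P40 were *Rpe65* (-2.82), *Lrat* (-1.80), *Rgr* (-1.43), *Rlbp1* (-1.18), *Slc6a20a* (-1.17), *Rdh5* (-1.05), and *Ermn* (-0.98), and *Rpe65* was the one lower at P20 (-2.17). Of the other lists of markers, *Col3a1* of fibroblasts was higher (1.13) and *Cspg4* of mural cells lower (-0.99) at P40, and *Rgs5* of mural cells was lower at P20 (-1.35). None of the markers of Müller glia and astrocytes, endothelium, blood, or the inner retina was called between the eyes by edgeR, whereas at P20 DESeq2 called 3 of 9 glial markers higher and 3 of 10 of the inner retina lower, and limma voom 3 glial markers higher and 2 lower and 4 of the inner retina lower. At P40, DESeq2 called 1 and limma voom 2 glial markers higher. With age in control eyes, 3 of 14 RPE markers were higher and 4 of 10 fibroblast markers lower, led by *Ttr* (2.20) and *Col1a1* (-2.47).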
